A study of Mus musculus with 7 samples.

Results

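The transcripts of B lymphocytes and of antibody-secreting plasma cells were followed through 7 whole colon tumors from a mouse model of colitis-associated colon cancer (CAC). The set held 8 of the 43346 genes of the count table, found by symbol. Of these, 5 mark B cells before they secrete antibody (*Ms4a1*, *Cd79a*, *Cd79b*, *Cd22* and *Pax5*) and 3 mark plasma cells (*Jchain*, *Mzb1* and *Pou2af1*). All 8 had counts in at least 1 tumor, and 7 passed the filter on low counts, *Pax5* being the exception.

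The tumors came from WT C57BL6/J mice, 8 weeks old by the labels, that had been transplanted with bone marrow (BM) of genotype Dnmt3a(+/+) (3 tumors) or Dnmt3a(+/-) (4 tumors). Each tumor came from a different animal, so the error of every comparison is the spread between animals. The recipients were given the carcinogen azoxymethane (AOM) at 10 mg/kg and then 3 cycles of 3% dextran sulfate sodium (DSS), which inflames the colon, each lasting 1 week with 2 weeks off between cycles. They were lethally irradiated CD45.1 mice by the methods, which give a younger age than the labels do. The donors carried *Mx1*-Cre, which poly(I:C) induces in blood cells and also in other tissues, and the Dnmt3a(+/+) donors were littermates treated in the same way. Only the graft lost 1 copy of *Dnmt3a*, so the tumor epithelium, the stroma and any host lymphocytes that outlived the irradiation kept both copies, and counts from a whole tumor do not tell graft cells from host cells.

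Tumors are named here by graft genotype and replicate number, as +/+ 1 to 3 and +/- 1 to 4. The transplants were done in 2 experiments, BMT18 (+/+ 1, +/+ 2, +/- 1 and +/- 2) and BMT8 (+/+ 3, +/- 3 and +/- 4). Between 38472738 and 64314999 counts were deposited per tumor. Levels are counts per 1000000 (CPM) of the TMM-scaled library size unless a sentence says that they are per length. *Dnmt3a* itself stood at 20.2 to 24.3 CPM in the +/+ tumors and at 22.03 to 43.0 CPM in the +/- tumors (edgeR adjusted p = 0.542), and since the deletion is in the graft alone, this level in whole tumors does not check the labels. The epithelial marker *Epcam* was at 1543 to 3239 CPM in all 7 tumors. Tumor +/- 2 stood apart from the others, at 111 on the first principal component of all genes (42.9% of the variance), against 36.6 for the next tumor. Tumor +/+ 3 had almost no smooth muscle transcripts, 22.6 CPM summed over 6 genes against 243 to 1167 CPM in the other tumors.

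B cells recognize antigen through a membrane immunoglobulin that signals through the CD79A and CD79B chains, and they leave the marrow as naive cells that settle in follicles. After activation they can become plasma cells, which lose the B cell program, switch on the secretory machinery and release antibody. In the gut lamina propria most plasma cells make IgA, which the J chain joins into dimers so that epithelium can carry it into the lumen. In the mouse colon, naive B cells are found mainly in lymphoid follicles and patches of the wall, whereas plasma cells lie scattered beneath the epithelium.

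The members are spread over several chromosomes, with *Cd79a* and *Cd22* both on chromosome 7. By GENCODE M21 on GRCm38, the B cell genes are *Ms4a1* (ENSMUSG00000024673, chromosome 19, 11249675 to 11266241, minus strand), *Cd79a* (ENSMUSG00000003379, chromosome 7, 24897381 to 24902197, plus strand), *Cd79b* (ENSMUSG00000040592, chromosome 11, 106311341 to 106314762, minus strand), *Cd22* (ENSMUSG00000030577, chromosome 7, 30865402 to 30880342, minus strand) and *Pax5* (ENSMUSG00000014030, chromosome 4, 44524757 to 44710487, minus strand). The plasma cell genes are *Jchain* (ENSMUSG00000067149, chromosome 5, 88519809 to 88527891, minus strand), *Mzb1* (ENSMUSG00000024353, minus strand) and *Pou2af1* (ENSMUSG00000032053, chromosome 9, 51213708 to 51240080, plus strand).

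RefSeq promoter windows on GRCm38.p6 were used for 5 of the 8 members, without *Ms4a1*, *Cd79b* and *Mzb1*. Those of 2 B cell and 2 plasma cell genes are printed below. Each line gives the part of the 250 bases before the RefSeq start that lies outside the gene's own GENCODE exons, 5′ to 3′ on the gene's strand, with matches to the searched motifs other than the loose CANNTG in capitals. The *Cd79a* line is chr7:24897247-24897380 (plus strand), the *Cd22* line chr7:30879029-30879176 (minus), the *Jchain* line chr5:88527898-88528147 (minus) and the *Pou2af1* line chr9:51213440-51213689 (plus).
Cd79a: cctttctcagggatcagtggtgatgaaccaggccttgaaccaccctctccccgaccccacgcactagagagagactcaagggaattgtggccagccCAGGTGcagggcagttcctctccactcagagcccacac
Cd22: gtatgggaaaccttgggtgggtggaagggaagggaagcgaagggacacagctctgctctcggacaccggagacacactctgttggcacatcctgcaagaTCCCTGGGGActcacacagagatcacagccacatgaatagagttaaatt
Jchain: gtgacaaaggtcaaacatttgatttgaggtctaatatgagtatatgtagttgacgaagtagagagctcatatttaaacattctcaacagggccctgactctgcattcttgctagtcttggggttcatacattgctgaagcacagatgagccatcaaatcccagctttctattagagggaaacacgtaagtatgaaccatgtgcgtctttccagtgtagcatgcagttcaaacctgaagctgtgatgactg
Pou2af1: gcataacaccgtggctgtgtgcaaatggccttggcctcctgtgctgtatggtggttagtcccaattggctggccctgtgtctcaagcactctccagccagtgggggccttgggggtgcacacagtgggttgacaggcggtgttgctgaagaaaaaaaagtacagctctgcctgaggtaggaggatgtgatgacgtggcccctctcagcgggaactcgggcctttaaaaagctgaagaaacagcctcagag

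The motifs were searched on both strands in the whole 250 bases. A palindrome of TCCC and GGGA set 2 bases apart, a form bound by the B cell factor EBF1, lies at position -49 of *Cd22*, counted to the RefSeq start, and is held by 0.779% of the 32851 mouse windows of that length. The E-box CACCTG, a form bound by E2A proteins, lies at -245 of *Cd22*, in the part that is not printed. On the opposite strand, as CAGGTG, it lies at -154 of *Cd79a*, and 17.2% of all windows hold it. The *Cd22* window lies within that gene's GENCODE span, which reaches to 30880342 on the minus strand. It is therefore not upstream of the whole gene. The ETS form GGAAGT lies at -54 of *Cd79a*, in a stretch that GENCODE counts as exon, and 19.7% of windows hold it. No window of a member held the octamer ATTTGCAT (1.6% of all windows), to which the protein of *Pou2af1* is recruited by OCT factors, or the E-box CAGCTG (13% of all windows). The looser CANNTG, which takes in both E-boxes, was in all 5 windows used here and in 66.2% of all windows. These matches describe letters in a window and no binding was measured.

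B cell genes were low in every tumor and most of them were highest in tumor +/- 3. *Ms4a1* encodes CD20, a surface protein of B cells from the late precursor stage until they become plasma cells. It was at 0.296, 0.359 and 0.0918 CPM in +/+ 1 to 3 and at 0.399, 0.0815, 1.67 and 0.378 CPM in +/- 1 to 4. Tumor +/- 3 (82 counts) lay above all other tumors (3 to 23 counts), and apart from it the groups covered similar ranges.

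The CD79 chains, which carry the signal of the B cell receptor, had a broader distribution over tumors. *Cd79a* was at 0.699, 0.0624 and 0.122 CPM in +/+ 1 to 3 and at 1.10, 1.26, 2.40 and 0 CPM in +/- 1 to 4. Tumor +/- 3 was again the highest, at 118 counts, and +/- 4 had 0 counts, which allows up to 0.0811 CPM (the level of 3 counts), so that +/- 3 was at least 29.5-fold higher. Tumors +/- 1 to 3 lay above all +/+ tumors and +/- 4 below them. *Cd79b* was at 0.269, 0.172 and 0.489 CPM in the +/+ tumors and at 0.973, 0.530, 1.56 and 0.0541 CPM in the +/- tumors. Both chains thus had +/- 3 at the top and +/- 4 at the bottom.

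*Cd22* encodes a lectin of B cells that dampens receptor signaling. It was at 0.134, 0.109 and 0.0612 CPM in the +/+ tumors and at 0.524, 1.04, 0.934 and 0.0811 CPM in the +/- tumors. As for the CD79 chains, 3 of the 4 +/- tumors lay above all +/+ tumors, and +/- 4 fell inside the +/+ range. The top tumor was +/- 2, with 51 counts against 46 in +/- 3, and the exact 95% intervals of these levels overlapped (0.774 to 1.37 and 0.684 to 1.25 CPM).

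*Pax5*, the transcription factor that holds B cells to their lineage, had 2 counts in +/+ 1, 1 count in +/- 1, 7 counts in +/- 3 and 0 counts in the other 4 tumors. Its level of 0.142 CPM in +/- 3 has an exact 95% interval of 0.0572 to 0.293 CPM, and the 0 counts elsewhere allow up to 0.0468 to 0.0918 CPM at 3 counts. *Pax5* did not pass the edgeR filter, and DESeq2 gave it an unadjusted p of 0.659 and no adjusted p. These intervals and limits cover counting error only.

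**Figure D1:**
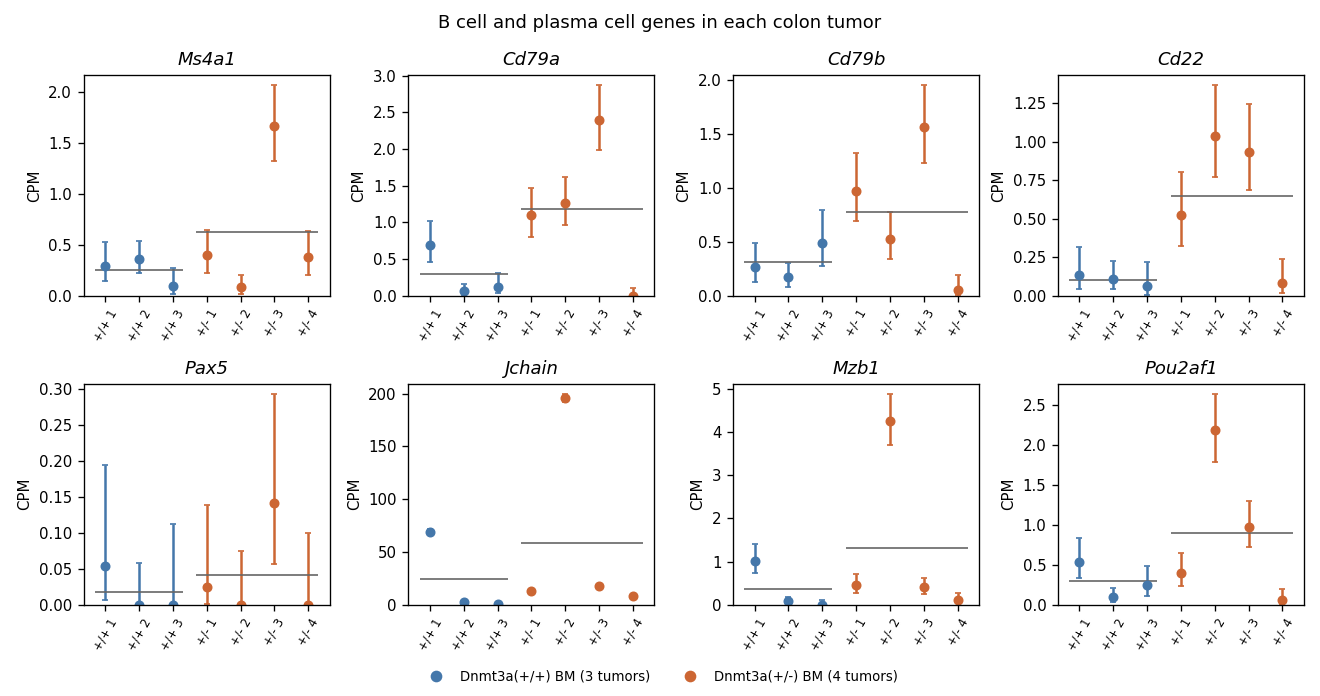
Level of each of the 8 genes in CPM (vertical axis, a separate scale for each gene) in the 3 Dnmt3a(+/+) BM tumors (blue) and the 4 Dnmt3a(+/-) BM tumors (orange), with exact 95% counting intervals as bars and group means as gray lines. Tumor +/- 3 is the highest for *Ms4a1*, *Cd79a*, *Cd79b* and *Pax5*, and +/- 2 for *Cd22*, *Jchain*, *Mzb1* and *Pou2af1*.

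Plasma cell genes followed another order, with tumor +/- 2 at the top for all 3, as it was for 24.7% of all tested genes. *Jchain* encodes the joining chain of polymeric IgA and IgM. It was at 68.9, 2.28 and 0.826 CPM in +/+ 1 to 3 and at 12.7, 195.6, 18.08 and 8.57 CPM in +/- 1 to 4. The highest and lowest tumors differed 237-fold (9602 and 27 counts), and +/+ 1 was second, above the other 3 +/- tumors.

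*Mzb1* encodes a chaperone of the endoplasmic reticulum that helps antibody to be assembled and secreted. It was at 1.02, 0.0781 and 0 CPM in the +/+ tumors and at 0.449, 4.26, 0.406 and 0.108 CPM in the +/- tumors. Tumor +/- 2 was at least 46.4-fold above +/+ 3, whose 0 counts allow up to 0.0918 CPM (again 3 counts). As for *Jchain*, +/+ 1 came next.

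*Pou2af1* encodes OCA-B, a coactivator of immunoglobulin promoters that B cells also use. It was at 0.537, 0.0937 and 0.245 CPM in the +/+ tumors and at 0.399, 2.18, 0.975 and 0.0541 CPM in the +/- tumors. Here +/- 3 came second, ahead of +/+ 1, which set *Pou2af1* between the plasma cell genes and the B cell genes.

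Between genes, levels were compared per length (counts per kilobase of exon, scaled to the same total in every tumor), as means over the 7 tumors with their SD. *Jchain* led at 54.7 ± 98.2 (SD, n = 7), followed by *Mzb1* at 2.38 ± 4.41 (SD, n = 7). *Cd79a* was at 1.63 ± 1.82, *Cd79b* at 1.13 ± 1.11, *Pou2af1* at 0.771 ± 1.05, *Cd22* at 0.248 ± 0.283, *Ms4a1* at 0.208 ± 0.264 and *Pax5* at 0.00995 ± 0.0174 (SD, n = 7). Between tumors, each pair of neighbors in this order differed by less than the larger of its 2 SDs. Within tumors, *Jchain* was 13.6 to 38.3 times as high as *Mzb1* per length in all 6 tumors that had *Mzb1* counts. As few cells of a type and little RNA per cell give the same count in a whole tumor, neither can be read from these levels.

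The 2 kinds of gene were set against each other as mean log2 CPM per tumor. For the 4 tested B cell genes this mean was -1.53, -2.35 and -2.39 in the +/+ tumors and -0.44, -0.82, 0.68 and -3.01 in the +/- tumors. For the 3 plasma cell genes it was 1.81, -1.55 and -2.15 in the +/+ tumors and 0.49, 3.62, 1.02 and -0.98 in the +/- tumors. The tumors +/+ 2, +/+ 3 and +/- 4 were low on both scales. Among the other 4, +/- 2 and +/+ 1 had the highest plasma cell values and +/- 3 and +/- 1 the highest B cell values.

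**Figure D2:**
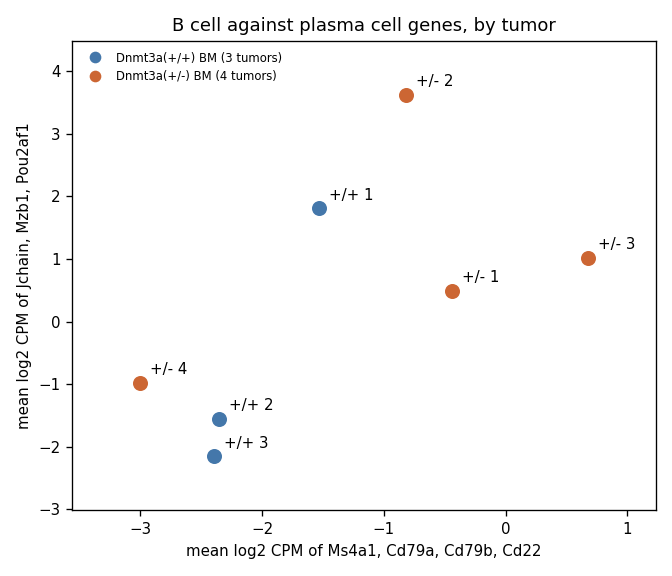
Mean log2 CPM of *Ms4a1*, *Cd79a*, *Cd79b* and *Cd22* (horizontal axis) against mean log2 CPM of *Jchain*, *Mzb1* and *Pou2af1* (vertical axis), 1 point per tumor, colored by graft. Tumor +/- 2 is the highest on the plasma cell axis at 3.62, and +/- 3 on the B cell axis at 0.68, and +/- 4 lies with +/+ 2 and +/+ 3 at the low end of both.

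Pearson correlations of log2 CPM over the 7 tumors describe how closely the members moved together, and the points of each share a library and its depth. The 3 pairs of plasma cell genes had values of 0.73 to 0.98, with *Jchain* and *Mzb1* at 0.98. The 6 pairs of the 4 tested B cell genes ranged from 0.27 to 0.87. *Cd79a* followed *Cd79b* (0.87) and *Cd22* (0.86), whereas *Ms4a1* was at 0.27 to 0.29 with each of them. Without +/- 2, where *Ms4a1* was at its lowest and *Cd22* at its highest, the 6 B cell pairs ranged from 0.42 to 0.89. The 3 plasma cell pairs then ranged from 0.52 to 0.96, and *Pou2af1* was at 0.52 with *Jchain* and at 0.96 with *Cd79a*. Over all 7 tumors, the 12 pairs of a B cell with a plasma cell gene covered -0.06 to 0.90. The lowest 3 were all with *Ms4a1* and the highest was *Cd79a* with *Pou2af1*.

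The comparison of grafts asked whether heterozygous loss of *Dnmt3a* in the BM went with a different level of these genes in the tumors. A gene was called when edgeR's quasi-likelihood test gave a Benjamini-Hochberg adjusted p under 0.05 and the log2 fold change exceeded 1 in size. No member met this, nor did any of the 15810 genes tested (0%). The lowest adjusted p of the table was 0.361, while DESeq2, run as an alternative, called 299 genes (1.83% of 16377) and no member, giving no p for *Jchain*. All 8 members overlapped between the groups. Among all genes, 6.12% had every +/- tumor above every +/+ tumor and 6.32% the reverse.

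The fitted log2 fold changes, +/- minus +/+, were above 0 for all 7 members tested, as they were for 50.2% of all genes, and the members share the same 7 tumors. For *Cd22* the group means were 0.102 ± 0.0372 CPM (SD, n = 3) and 0.645 ± 0.436 CPM (SD, n = 4), with a log2 fold change of 2.63 (SE 0.86) and an edgeR adjusted p of 0.392. It was the 1 member with an unadjusted p under 0.05, a level at which 5.83% of all genes were higher and 5.2% lower in the +/- group. *Cd22* had 2 to 7 counts in the +/+ tumors and did not pass the filter when +/- 1, +/- 2 or +/- 3 was left out, so it entered the test through the group where it was high.

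*Cd79a* had means of 0.294 ± 0.351 CPM (SD, n = 3) and 1.19 ± 0.981 CPM (SD, n = 4) and a log2 fold change of 2.03 (SE 1.40, edgeR adjusted p = 0.615). *Cd79b* differed by 1.35 (SE 0.94) and *Ms4a1* by 1.31 (SE 0.97) on the log2 scale, with edgeR adjusted p of 0.620 and 0.643. The median over the 4 B cell genes tested was 1.69, against 0.0025 over all genes. Without +/- 3 the *Ms4a1* value was 0.17 and that of *Cd79b* 0.76, and without +/+ 1 that of *Cd79a* was 3.70.

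*Jchain* and *Mzb1* had the largest errors of the 7 tested members. *Jchain* had means of 24.0 ± 38.9 CPM (SD, n = 3) and 58.7 ± 91.3 CPM (SD, n = 4), with a log2 fold change of 1.29 (SE 1.64, edgeR adjusted p = 0.819). *Mzb1* differed by 1.84 (SE 1.605) and *Pou2af1* by 1.65 (SE 1.11) on the log2 scale, with edgeR adjusted p of 0.703 and 0.606. The median over the 3 was 1.65. Each SD exceeded its mean for *Jchain* and *Mzb1* in both groups.

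Leaving out 1 tumor turned the direction for 2 of the 3 plasma cell genes. With +/- 2 left out, the log2 fold change was -0.84 for *Jchain* and -0.13 for *Mzb1*, and 0.78 for *Pou2af1*. With +/+ 1 left out, the values kept their direction at 5.20, 4.77 and 2.44. No leave-out moved a B cell gene below 0.

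**Figure D3:**
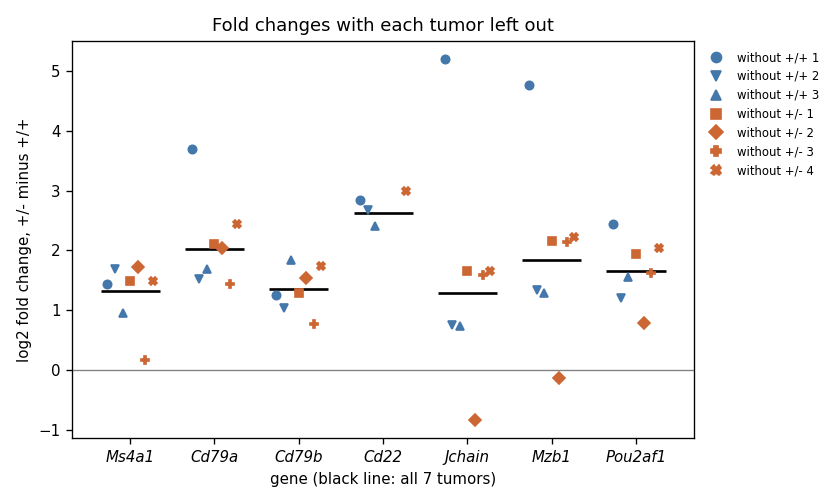
Log2 fold change (+/- minus +/+, vertical axis) of the 7 tested genes with each tumor left out in turn (symbols) and with all 7 tumors (black lines). *Jchain* and *Mzb1* lie at -0.84 and -0.13 without +/- 2 and at 5.20 and 4.77 without +/+ 1, while *Cd22*, which could be fitted in 4 of the 7 leave-outs, stays between 2.41 and 2.99.

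Within experiment BMT18 alone, with 2 tumors a group, *Cd22* differed by 2.69, *Cd79b* by 1.78 and *Cd79a* by 1.68 on the log2 scale, with edgeR adjusted p of 0.492, 0.492 and 0.589. *Ms4a1* was at -0.46 there (edgeR adjusted p = 0.867), where +/+ 3, +/- 3 and +/- 4 were all absent. *Jchain*, *Mzb1* and *Pou2af1* differed by 1.58, 2.15 and 2.09 in BMT18, with edgeR adjusted p of 0.759, 0.616 and 0.546. BMT8 holds 1 +/+ tumor, and with the experiment as a covariate over all 7 tumors the member values were 0.74 to 2.78, the lowest being *Ms4a1* and the highest *Cd22*.

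The wider B cell program was read from 20 other genes. Tumor +/- 3 was the highest for 11 of the 20, as for 4 of the 5 B cell members, while 4.57% of all tested genes were highest there. In the graft comparison 12 of the 20 were tested, of which 10 were higher and 2 lower in the +/- group with a median log2 fold change of 0.67 and none called. *Cxcr5*, the receptor that draws B cells into follicles, was at 0.0806, 0.0937 and 0 CPM in the +/+ tumors and at 0.299, 0.387, 0.751 and 0.108 CPM in the +/- tumors. Every +/- tumor lay above every +/+ tumor, as for 6.12% of all genes (log2 fold change 2.60, SE 0.94, edgeR adjusted p = 0.411). The gap was narrow, with 0.108 CPM in +/- 4 against 0.0937 CPM in +/+ 2. The level of 3 counts is 0.0811 CPM in +/- 4 and 0.0468 CPM in +/+ 2. Like *Cd22*, *Cxcr5* did not pass the filter when +/- 1, +/- 2 or +/- 3 was left out, so it too entered the test through the group where it was high.

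*Ebf1*, which specifies the B lineage but is also used by stromal cells, was at 0.269, 0.234 and 0.551 CPM in the +/+ tumors and at 0.599, 1.39, 0.833 and 1.03 CPM in the +/- tumors. These did not overlap either (log2 fold change 1.46, SE 0.51, edgeR adjusted p = 0.406). A further gene without overlap, *Ralgps2*, had every +/- tumor (60.2 to 82.9 CPM) below every +/+ tumor (84.1 to 85.6 CPM), with a log2 fold change of -0.27 and an edgeR adjusted p of 0.523. The top tumor of *Ebf1* was +/- 2, where 7 of 7 fibroblast genes were also at their highest. The part of stroma in the *Ebf1* level was not tested. The most abundant of the 20, *Blnk* (66.7 to 124 CPM), *Ralgps2* and *Cd72* (2.05 to 9.30 CPM), did not follow the B cell members. *Cd37* (0.968 to 4.60 CPM) and *Btk* (0.703 to 2.16 CPM), which myeloid cells share, and *Cd180* (0.0811 to 0.774 CPM) were highest in +/- 2. *Spib*, a factor of B cells, plasmacytoid dendritic cells and M cells, was at 3.01 CPM in +/- 3 and at 0 to 0.898 CPM elsewhere.

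Among the genes highest in +/- 3 were 3 of naive and follicular B cells, picked here after their values were seen. *Cr2*, the complement receptor of follicular B cells and follicular dendritic cells, was at 0, 0 and 0.0306 CPM in the +/+ tumors and at 0.125, 0.0204, 1.16 and 0.189 CPM in the +/- tumors. *Fcer2a* (CD23) was at 0.548 CPM in +/- 3 and *Fcmr*, the IgM Fc receptor, at 1.08 CPM, against at most 0.244 and 0.296 CPM in other tumors. Of these 3 genes, *Fcmr* alone passed the edgeR filter (edgeR adjusted p = 0.872), and DESeq2 gave an adjusted p of 0.0842 for *Cr2*, 0.325 for *Fcer2a* and 0.908 for *Fcmr*.

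The germinal center is where B cells mutate their antibody genes. Of 9 of its genes, 0 were highest in +/- 3 and 3 in +/- 2. For the graft comparison 7 were tested, with 5 higher, 2 lower, none with an unadjusted p under 0.05 and a median log2 fold change of 0.38. The abundant ones, *Basp1* (22.1 to 99.2 CPM), *Bcl6* (10.6 to 29.5 CPM), *S1pr2* (4.40 to 12.9 CPM) and *Mybl1* (1.25 to 2.93 CPM), are used by other cells as well.

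**Figure D4:**
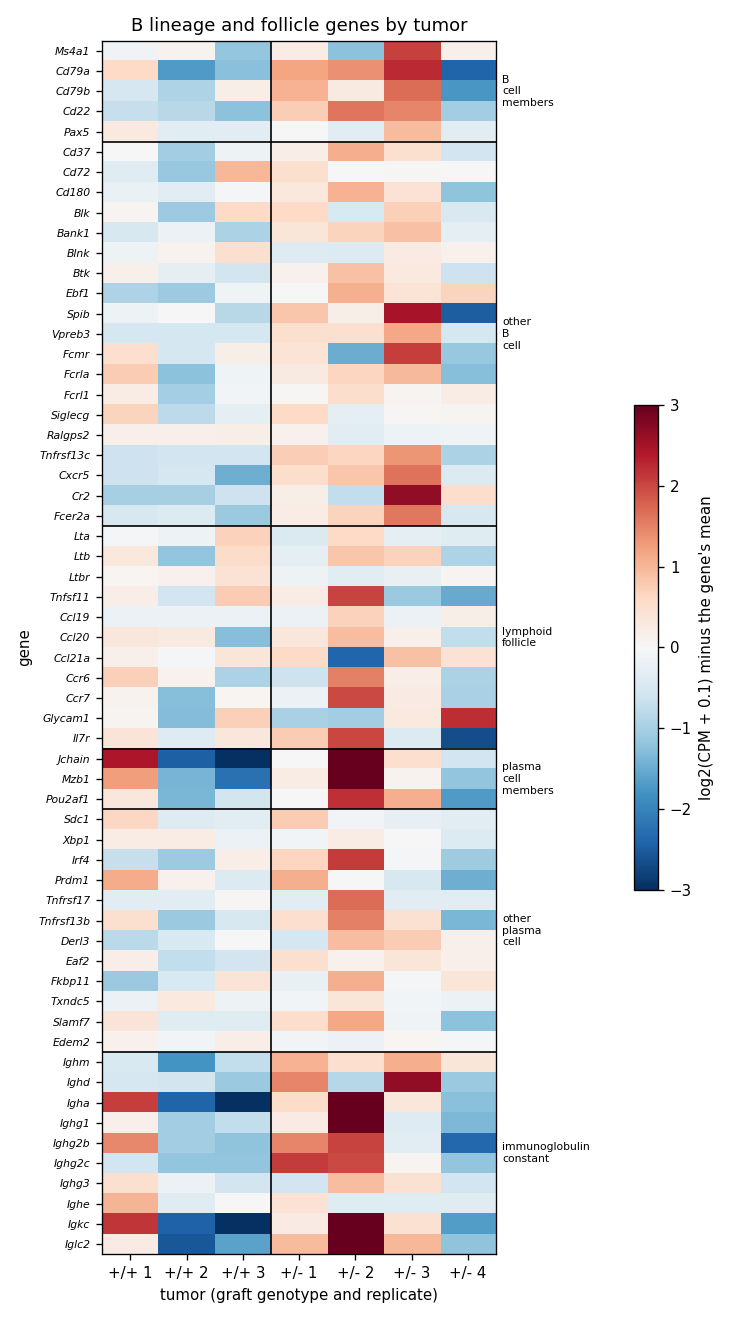
Log2(CPM + 0.1) of the 8 members and of most of the other B cell, lymphoid follicle, other plasma cell and immunoglobulin constant genes (rows) in the 7 tumors (columns), each minus the gene's mean, from blue (low) to red (high). Most of the B cell genes are red in +/- 3, including *Cr2* at 1.16 CPM, though *Ralgps2* is below its mean there. *Jchain*, *Mzb1*, *Igha* and *Igkc* are darkest red in +/- 2 and next in +/+ 1.

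Some immunoglobulin transcripts divided along the same lines. *Igha*, the constant region of IgA, was at 118, 5.17 and 1.44 CPM in the +/+ tumors and at 40.4, 827, 34.9 and 11.5 CPM in the +/- tumors, a 575-fold range with the same highest and lowest tumors as *Jchain*. *Igkc*, the kappa light chain, was at 10.5, 0.343 and 0.0918 CPM and at 2.72, 68.5, 3.17 and 0.649 CPM. Per CPM of *Jchain* there was between 1.34 (+/- 4) and 4.23 (+/- 2) CPM of *Igha*, a ratio that moved far less than the 575-fold and 237-fold ranges of the 2 genes themselves. *Ighd*, the IgD constant region of naive B cells, was instead highest in +/- 3 at 1.26 CPM and +/- 1 at 0.499 CPM, and at no more than 0.0537 CPM in the other tumors.

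*Ighm*, the IgM constant region, was at 1.75, 0.624 and 1.41 CPM in the +/+ tumors and at 5.09, 3.48, 5.32 and 3.16 CPM in the +/- tumors. Every +/- tumor lay above every +/+ tumor, with a log2 fold change of 1.76 (SE 0.45). Its adjusted p was 0.361 in edgeR, so it was not called, while its DESeq2 adjusted p was 0.00501. With each tumor left out the value stayed between 1.43 and 2.07.

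Of 12 immunoglobulin constant genes listed, 10 were in the table and 6 were tested, and all 6 were higher in the +/- group with a median log2 fold change of 2.303. Without +/- 2, *Igha* was at -0.49, *Igkc* at -0.70 and *Ighg1* at 0.18, so this direction rested on that tumor for the first 2. *Iglc2* (0.0156 to 5.95 CPM), *Ighg1* (0.108 to 4.40 CPM) and *Ighg2b* (0.0270 to 2.57 CPM) were also highest in +/- 2, and *Ighg2c* reached 0.873 CPM in +/- 1. Constant genes of one class resemble each other, and their values rest on how reads that match several of them were divided in counting.

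Other genes of plasma cells did not all follow the members. *Sdc1* (CD138; 418 to 934 CPM), *Xbp1* (146 to 227 CPM), *Txndc5* (201 to 294 CPM), *Edem2* (48.1 to 62.2 CPM) and *Prdm1* (4.30 to 26.1 CPM), which epithelial or other secretory cells also express, did not follow *Jchain*. *Fkbp11* was at 2.02 to 9.56 CPM, *Tnfrsf13b* (TACI) at 0.216 to 2.26 CPM and *Slamf7* at 0.270 to 1.83 CPM, each with its top in +/- 2, though *Fkbp11* was lowest in +/+ 1. Among those picked after their values were seen, *Tnfrsf17* (BCMA), the survival receptor of plasma cells, was at 0.306 CPM in +/- 2, 0.0306 CPM in +/+ 3 and 0 in the other 5 tumors. *Irf4* was at 1.53 CPM in +/- 2 and 0.0781 to 0.499 CPM elsewhere. *Derl3* was also highest in +/- 2 (0.856 CPM) but lowest in +/+ 1 (0.188 CPM), where *Jchain* was second, and *Eaf2* was highest in +/- 1 (0.674 CPM). Of 12 genes 11 were tested, with 8 higher and 3 lower, none with an unadjusted p under 0.05 and a median log2 fold change of 0.43.

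**Figure D5:**
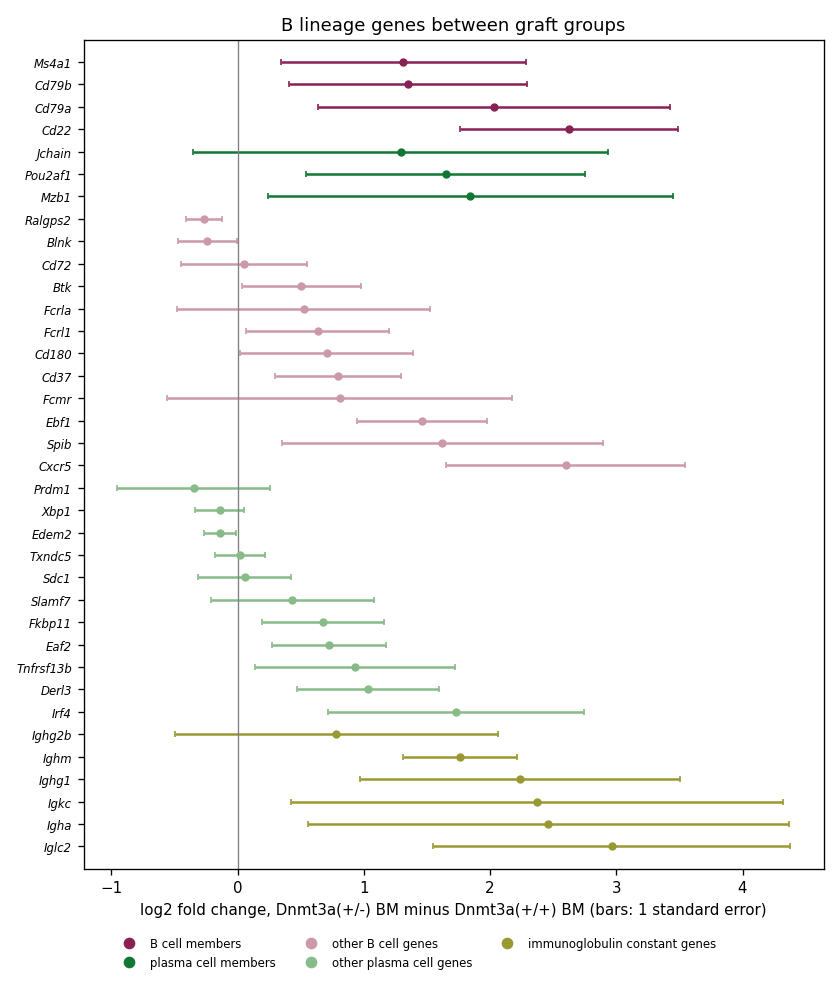
Log2 fold change (+/- minus +/+, horizontal axis) with 1 standard error for each tested gene of the B cell members, plasma cell members, other B cell genes, other plasma cell genes and immunoglobulin constant genes (rows, by color). All 7 members lie above 0 with errors of 0.86 to 1.64, and *Ighm* at 1.76 has an error of 0.45.

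The signals that keep B cells and plasma cells alive or bring them to the gut were tested as 12 genes, of which 7 were higher and 5 lower in the +/- group, with a median log2 fold change of 0.23. *Tnfsf13* encodes APRIL, a survival factor for plasma cells. It was at 32.6, 32.0 and 43.3 CPM in the +/+ tumors and at 16.7, 9.29, 17.4 and 14.2 CPM in the +/- tumors, so that every +/- tumor lay below every +/+ tumor (log2 fold change -1.32, SE 0.25, edgeR adjusted p = 0.361, DESeq2 adjusted p = 0.00237). It thus met the call rule in DESeq2 and not in edgeR. Its span is shared with *Tnfsfm13* on the same strand and *Tnfsf13os* on the other, so its reads are not wholly its own. It ran against *Jchain* in +/- 2, where *Tnfsf13* was lowest and *Jchain* highest.

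*Ccl28*, the epithelial chemokine that attracts IgA plasma cells, was at 117, 154 and 21.7 CPM in the +/+ tumors and at 38.3, 24.1, 51.2 and 11.9 CPM in the +/- tumors (log2 fold change -1.64, SE 0.67, edgeR adjusted p = 0.435). The groups overlapped through +/+ 3. Among the more abundant others, *Cxcl12* (3.61 to 11.8 CPM) and *Itgb7* (0.811 to 8.32 CPM) had no unadjusted p under 0.05. *Madcam1*, the gut vessel ligand of the integrin that *Itgb7* helps to form, was picked after its values were seen, at 3.69 CPM in +/- 2 and 0 to 0.447 CPM in the other tumors (edgeR adjusted p = 0.491).

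Of 12 genes of lymphoid follicles, 8 were tested, with 6 higher and 2 lower, none with an unadjusted p under 0.05 and a median of 0.27. *Ltbr* (89.2 to 149 CPM), *Ccl21a* (4.01 to 39.4 CPM) and *Ltb* (1.499 to 6.36 CPM) were among the most abundant. *Ccl21a*, a chemokine of lymphatic vessels and lymphoid stroma, was highest in +/- 3, at 39.4 CPM against 32.0 CPM in +/- 1. It was the 1 gene of the 12 to peak in +/- 3, while 7 peaked in +/- 2, as did 24.7% of all tested genes. *Cxcl13*, the follicle chemokine read by CXCR5, was at 1.24, 1.09 and 1.22 CPM in the +/+ tumors and at 0.724, 1.16, 2.27 and 2.24 CPM in the +/- tumors. It was high in +/- 3 and just as high in +/- 4, where *Cd79a*, *Cd79b* and the mean of the tested B cell members were lowest. *Ms4a1*, at 0.378 CPM, and *Cd22* were not at their lowest in +/- 4.

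Downstream of the receptor, 15 signaling genes were tested, with 11 higher and 4 lower and a median of 0.22. These are shared with myeloid, T and epithelial cells. *Fyn* (log2 fold change 1.29) and *Pik3ap1* (BCAP, log2 fold change 2.65) had an unadjusted p under 0.05 on the higher side and *Lyn* (log2 fold change -0.57) on the lower, with edgeR adjusted p of 0.373, 0.450 and 0.435. *Fyn* met the call rule in DESeq2 (adjusted p = 0.0314) and the other 2 did not. *Pik3ap1* was at 26.9 CPM in +/- 2 and 0.642 to 3.88 CPM elsewhere, and its log2 fold change without that tumor was 0.98.

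Markers of other cells moved with the members in part. The 8 leukocyte genes summed to 105, 42.0 and 89.6 CPM in the +/+ tumors and to 106, 167, 75.2 and 42.6 CPM in the +/- tumors, and 7 of 8 were highest in +/- 2 with the plasma cell genes. The 7 fibroblast genes summed to 1017 CPM in +/- 2 and to 152 to 358 CPM in the other tumors, and the 8 macrophage genes to 358 CPM against 147 to 231 CPM. In +/- 3, where the B cell genes peaked, the leukocyte sum was below that of 4 other tumors. The part of these cells in the member values was not tested.

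The tumors low in members were not all low in leukocytes. Tumors +/+ 2 and +/- 4 had the lowest leukocyte sums, whereas +/+ 3, the lowest for *Jchain*, *Mzb1* and *Cd22*, had 89.6 CPM. The 12 T cell genes summed to 32.8, 14.4 and 33.6 CPM in the +/+ tumors and to 32.8, 39.7, 28.6 and 21.1 CPM in the +/- tumors, with 6 higher and 6 lower and a median log2 fold change of -0.05. *Zap70*, a kinase of T cell receptor signaling, was the 1 of them with an unadjusted p under 0.05 (log2 fold change 1.65, edgeR adjusted p = 0.377), and it met the call rule in DESeq2 (adjusted p = 0.0296).

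Smooth muscle of the colon wall was highest in +/- 3 for 5 of 6 genes, with a sum of 1167 CPM there and 22.6 CPM in +/+ 3. Over the other tumors it did not track the B cell members, since +/+ 1 and +/+ 2 followed at 909 and 776 CPM with low B cell levels. Plasmacytoid dendritic cells also use *Spib*. Of 8 of their genes 6 were tested, with 3 higher and 3 lower and a median log2 fold change of -0.12. *Siglech*, a defining marker of these cells, was at 0.0156 to 0.484 CPM and at 0.0406 CPM in +/- 3, whereas *Tcf4*, which many cells use, was at 50.6, 52.6 and 99.3 CPM in the +/+ tumors and at 83.3, 156, 212 and 265 CPM in the +/- tumors (log2 fold change 1.41, edgeR adjusted p = 0.383). The 9 epithelial genes were lower in the +/- group for 8 of 9, with a median log2 fold change of -0.56, and summed to 9563 CPM in +/- 2 and 12989 to 32740 CPM in the others.

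The genes whose pattern over the 7 tumors was most like that of the members were found by Pearson correlation of log2 CPM with the mean of each kind. For the plasma cell genes, the top 8 of 15716 were *Igkc* (0.995), *Igha* (0.987), *Igkv1-117* (0.983), *Rtl5* (0.982), *C9orf72* (0.979), another kappa variable segment (0.978), *Dpf1* (0.977) and *Lipe* (0.975). Of these 8, 4 are immunoglobulin genes, and 29 genes reached 0.95. *Igkv1-117*, a kappa variable segment, was at 14.3 CPM in +/- 2 and at most 0.833 CPM elsewhere.

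For the B cell genes, the top 8 were *9530052C20Rik* (0.952), *Gm11847* (0.930), *Clcn6* (0.923), *Pcdhb14* (0.921), *Cilp* (0.918), *Phf24* (0.913), *Igf2bp2* (0.902) and *Spib* (0.9003). *Spib* is the 1 of them on the B cell lists, and 1 gene reached 0.95. Of these, *9530052C20Rik*, *Gm11847* and *Clcn6* varied less than 2-fold over the tumors.

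Some member loci overlap other annotated genes, and the strand setting of the counting was not given in the sources used here. *Ms4a1* and *Cd22* are overlapped by antisense genes (*4930526L06Rik* and *Gm29439*), *Mzb1* by *SPATA24* on its own strand and *Pou2af1* by *Gm47828* in an intron. *Cd79a*, *Cd79b* and *Jchain* have no overlapping gene in that annotation.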

How the data were processed

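Polyadenylated RNA from 7 whole colon tumors was sequenced. The authors used Trimmomatic for trimming, STAR for alignment to mm10 and RSEM for quantification, and they deposited estimated counts per gene, all whole numbers and not normalized. The annotation release and strand setting are not given in the sources used here. Symbols, positions and exon lengths were taken from GENCODE M21 (42462 of 43346 identifiers matched). Identifiers without a symbol held 0.104% of the counts and stayed in the fit.

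Groups were compared over the whole table with edgeR 4.0.16 in R 4.3.3 (TMM, filterByExpr, quasi-likelihood test, two-sided, no covariate, Benjamini-Hochberg adjustment over 15810 genes). CPM on the log2 scale used a prior count of 2. DESeq2 1.42.0 and other scalings, filters, covariates and leave-outs were alternatives. The steps were tested on simulated data. Genes were named by rule: the members, list genes with an unadjusted p under 0.05, otherwise the most abundant of each list, and the 8 most similar genes. Members and lists were chosen with earlier results of these data known. Promoter windows are from RefSeq. Values of a few list genes are not reported here.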

Additional observations from a re-analysis of the deposited data

Results flagged for a closer look

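Within the 4 Dnmt3a(+/-) BM tumors, Dixon's test marked 11 of 43 values examined as far from the other 3 tumors, where chance alone would mark about 2.15. That expected number holds for genes chosen without sight of their values, whereas *Tnfrsf17*, *Madcam1* and *Cr2* were named after theirs were seen. The 43 values do not cover every listed gene, and no conclusion is drawn from the excess. Tumor +/- 2 stood alone in 8 of them. It was the highest for the plasma cell members *Jchain* (195.6 CPM) and *Mzb1* (4.26 CPM), for the immunoglobulin genes *Igha* (827 CPM), *Ighg1* (4.40 CPM) and *Igkc* (68.5 CPM), for the plasma cell receptor *Tnfrsf17* (0.306 CPM), for the vessel ligand *Madcam1* (3.69 CPM) and for the signaling adaptor *Pik3ap1* (26.9 CPM). These genes share that tumor and are not independent of each other.

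Tumor +/- 1 stood alone for *Cd72* (6.51 CPM), a surface protein of B cells, although +/+ 3 was higher still at 9.30 CPM, and for *Sdc1* (934 CPM), which colon epithelium expresses. Tumor +/- 3 stood alone for *Cr2* (1.16 CPM), the follicular complement receptor. No B cell member was marked, and *Ms4a1* in +/- 3 fell short of the critical value for 4 samples.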

How the results depend on the processing

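Of 103 alternative values for the 7 tested members, 100 kept their direction and their side of the threshold, 3 reversed and none passed it. Over the leave-outs *Jchain* ranged from -0.84 to 5.20 and *Mzb1* from -0.13 to 4.77, the high ends without +/+ 1. The reversed values were *Jchain* at -0.84 and *Mzb1* at -0.13 without +/- 2, and *Ms4a1* at -0.46 within BMT18 alone. The median log2 fold change of the plasma cell members ranged from -0.13 (without +/- 2) to 4.77 (without +/+ 1) over the leave-outs. That of the B cell members ranged from 0.76 (without +/- 3) to 2.14 (without +/+ 1). The 0.76 is over 3 members, since *Cd22*, with the largest fold change, was not fitted there, and the 2.14 is over 4. DESeq2 called 299 genes (243 higher and 56 lower) where edgeR called 0, and edgeR had 1744 genes at an unadjusted p under 0.05. That count was 883 without +/+ 2 and 1114 without +/- 2. The causes were not tested.

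Same-numbered tumors did not deviate together throughout (correlations of 0.57, 0.07 and -0.04 for numbers 1 to 3), so the numbers were not taken as pairs. With the replicate block, 0 genes were called, 1885 had an unadjusted p under 0.05, and *Jchain* was at 3.60 with +/- 4 unpaired. Scaling by library size alone moved the median of all genes to 0.21 and left every tested member above 0. With at least 1 CPM required in 3 tumors, *Cd79a* and *Jchain* alone stayed in the test. The B cell members had at most 118 counts in any tumor, and how far this depth limited the comparison was not tested.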
